A study of Homo sapiens with 9 samples.

Results

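In antibody-barcode eCLIP (ABC), antibodies that carry DNA barcodes mark the RNA fragments held by RNA-binding proteins (RBPs), so that 10 RBPs can be read from 1 tube (10plex ABC). The peaks described here are those that the authors took out of their lists because they lay in repeats, defined as the merged peaks of a library whose chromosome, start, end and strand are absent from the same library's list after repeat removal. They numbered 301998 of 1705595 merged peaks (17.7%) over 40 libraries, which are 10 RBPs in each of 4 pools, namely K562 replicates 1 and 2 and HEK293 replicates 1 and 2. The 10 RBPs were DDX3, EIF3G, FAM120A, IGF2BP2, LIN28B, PRPF8, PUM2, RBFOX2, SF3B4 and ZC3H11A, and no pool had a treatment other than UV crosslinking of the cells. The peaks that stayed in the filtered list are called kept peaks. K562 replicate 3 has no filtered list and was used only to look at the same places in an independent pool.

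K562 is a human erythroleukemia line and HEK293 a human embryonic kidney line, which the titles and source names give as HEK293T. A further label of both HEK293 pools names K562 as the cell line, and the pools were grouped by title. Of 9 erythroid marker genes, 6 (HBZ, HBA1, HBA2, GATA1, TAL1 and KLF1) had peaks in every K562 pool and none of the 9 had a peak in a HEK293 pool. The replicates were separate pools of each line, but the labels do not say whether they came from separate cultures. Only the test between cell lines measures the spread between these pools. The permutation of RBP labels and the sign flips over RBPs measure the spread between RBPs that share the same pools. Merged peaks ranged from 938 to 206869 per library and removed peaks from 216 to 64444, with PUM2 libraries the smallest in every pool. In the K562 pools the recovered reads in merged peaks ran from 13351 to 2193037 per library. The highest value is that of FAM120A in replicate 2, where the recovered reads were not compared with peak names. The depth in HEK293 is unknown, as reads could not be recovered there.

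Repeats in transcripts fall into kinds that RBPs can meet in different ways. The genes of small nuclear RNAs (U1, U2, U4, U5 and U6, the RNA parts of the spliceosome), 7SK, Y RNA, 5S rRNA and tRNA have many near-identical copies and count as repeats although the RNAs are abundant and functional. Alu elements, the most numerous human retrotransposon, descend from 7SL RNA, the RNA of the signal recognition particle, and lie mostly in introns and 3′UTRs in both orientations, so that a transcript holds them in sense or antisense to 7SL. Tandem repeats such as A or AC tracts form a further kind. Reads from abundant repeats were set aside by the authors before alignment to the genome and only unique alignments were used, so the removed peaks show what reached single places in the genome and not the whole signal of a repeat family.

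The sequences below show 3 kinds of place that were removed, an abundant small RNA, a tandem repeat and an intron with the motif of its RBP. Each is printed 5′ to 3′ on the strand of the transcript from GRCh38. They were chosen after their values were seen, from sites that were removed in 1 RBP in all 4 pools and lie neither in a coding exon nor in a UTR. The first lies at the 3′ end of RN7SK (chr6:52995907-52995950, + strand, PUM2), the RNA that holds the elongation factor P-TEFb inactive. The next is an AC repeat in a distal intron of ADGRV1 (chr5:90765406-90765502, + strand, RBFOX2), with the repeat in capitals. The last is a distal intron of HPCAL1 (chr2:10335911-10336007, + strand, RBFOX2), where a unit that holds GCATG, the RBFOX2 motif, in capitals, stands 3 times.
RN7SK: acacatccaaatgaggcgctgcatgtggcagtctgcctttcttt
AC repeat: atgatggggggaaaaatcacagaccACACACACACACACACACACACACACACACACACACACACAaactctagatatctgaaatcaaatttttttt
GCATG in an intron: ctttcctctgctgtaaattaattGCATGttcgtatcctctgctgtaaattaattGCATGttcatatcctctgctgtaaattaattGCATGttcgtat

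RBFOX2, an intron-binding splicing regulator, lost the largest share of its peaks and PRPF8, a core spliceosome protein bound near 5′ splice sites, the smallest. The removed share of RBFOX2 was 21.7% and 23.3% in K562 and 26.9% and 31.2% in HEK293 replicates 1 and 2, with a mean of 25.8% ± 4.22 (SD, n = 4 pools). Values of other RBPs reached the lower part of this range, mostly in K562 replicate 1, with 25.8% for ZC3H11A, 24.2% for PUM2 and 22.5% for EIF3G, and once in HEK293 replicate 2, with 22.3% for FAM120A. The other 9 RBPs had a mean of 14.7%, and the difference passed the exact permutation test of the RBP labels within pools (two-sided, adjusted p = 0.005 over 10 RBPs). PRPF8 lost 9.02%, 7.97%, 8.55% and 10.3%, a mean of 8.95% ± 0.977 (SD, n = 4 pools) against 16.5% for the other 9 (exact permutation test, adjusted p = 0.0495). Without either HEK293 pool the RBFOX2 value lay at the threshold itself (adjusted exact permutation p = 0.05), which was counted as a call. The PRPF8 call was lost on leaving out any 1 pool, with adjusted exact permutation p-values from 0.065 without HEK293 replicate 2 to 0.2 without K562 replicate 1. Weighted by the reads of each peak, which could be done in K562 alone, RBFOX2 stood 0.70 percentage points above the other RBPs and the difference of PRPF8 was −1.69.

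The other 8 RBPs did not pass the test. Their mean removed shares ran from 10.9% for SF3B4, 12.1% for LIN28B and 12.6% for IGF2BP2 through 14.5% for DDX3, 16.8% for ZC3H11A and 18.0% for EIF3G to 18.4% for PUM2 and 19.7% for FAM120A. The values of ZC3H11A spread most, with 25.8% in K562 replicate 1 against 13.01% to 15.5% in the other 3 pools. The pools themselves averaged 18.3% and 14.2% in K562 and 14.04% and 16.6% in HEK293 over the 10 RBPs. The cell lines, with means of 16.2% in K562 and 15.3% in HEK293, could not be told apart with 2 pools each (exact permutation test, p = 0.667, where 0.3333 is the smallest possible). The sign of that difference turned on leaving out K562 replicate 1, with HEK293 then higher by 1.11 percentage points, and on leaving out HEK293 replicate 1, by 0.37.

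**Figure D1:**
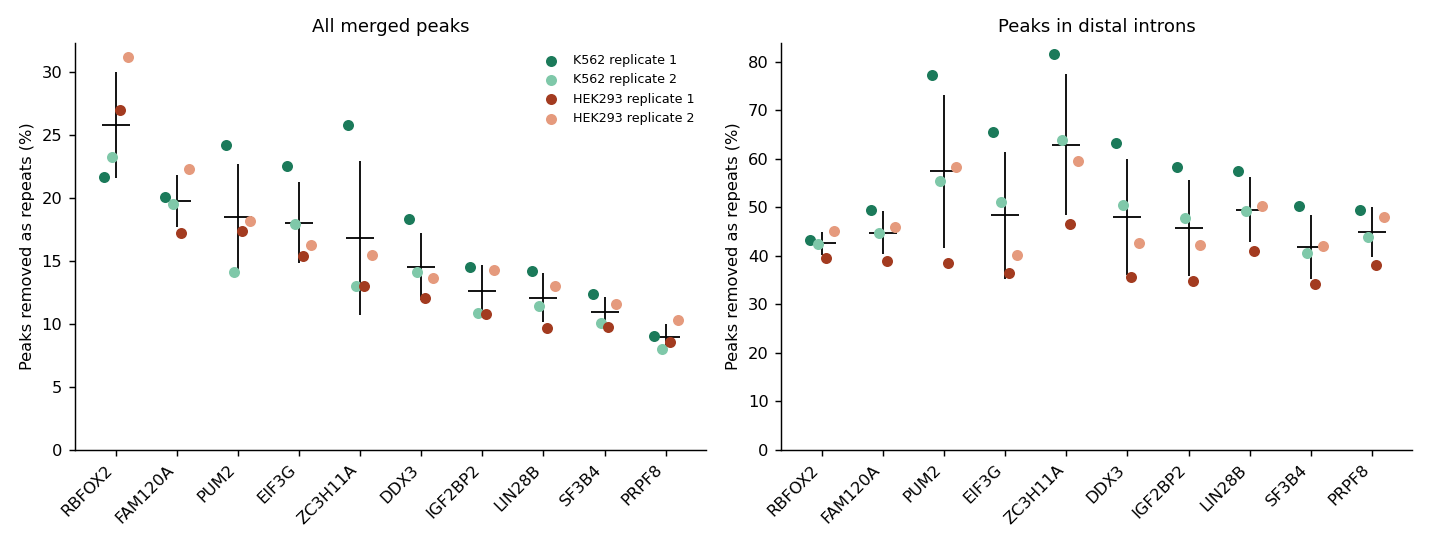
Percent of merged peaks that were removed as repeats, for each RBP over all peaks (left) and over the peaks in distal introns alone (right). Points are pools, the black line with its bar is the mean ± SD of the 4 pools, and RBFOX2 stands highest on the left with 25.8% but not on the right, where it has 42.5%.

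The removed share differed between genic regions as well as between RBPs. Distal introns lie more than 500 nt from an exon of the transcripts used. Peaks inside a gene but outside these transcripts were counted with them. Within distal introns the RBP means ran from 41.7% to 62.9%, and within the CDS from 4.61% to 9.92%. Proximal introns lay between, at 19.2% to 38.2%, followed by noncoding exons at 19.6% to 31.3%, 5′UTRs at 17.8% to 23.2% and 3′UTRs at 11.7% to 16.02%. The RBP means spread more widely at 3′ splice sites, from 7.06% for SF3B4 to 25.3% for ZC3H11A, at 5′ splice sites, from 7.51% for PRPF8 to 29.4% for PUM2, and in small RNA genes, from 15.8% for PUM2 to 30.5% for PRPF8. RBFOX2, the highest over all peaks, lost 42.5% of its distal intron peaks, 6.70 percentage points below the mean of the other 9 RBPs, a difference that did not pass the exact permutation test (adjusted p = 0.2805). ZC3H11A had the highest share within distal introns, 81.5% and 63.9% in K562 and 46.5% and 59.6% in HEK293 (15.9 points above the other 9, adjusted exact permutation p = 0.001). For PRPF8, with most kept peaks in the CDS, the difference from the other RBPs was −1.89 percentage points within the CDS (exact permutation test, adjusted p = 0.169). PUM2 and EIF3G stood 4.02 and 3.39 points above the others within the CDS (adjusted exact permutation p = 0.006 and 0.019).

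Introns held a larger and coding exons a smaller share of the removed than of the kept peaks. On average over the 10 RBPs, 33.2% of the removed peaks were in distal introns against 8.27% of the kept peaks, with 10 of 10 RBPs higher. The CDS held 19.5% of the removed and 48.7% of the kept peaks, with 10 of 10 RBPs lower. Of the 10 regions, 7 differed between removed and kept peaks in the exact test by sign flips over RBPs. The 5′UTR share was 11.3% among removed and 7.27% among kept peaks (exact sign flips, adjusted p = 0.00651, 9 of 10 RBPs higher), that of noncoding exons 4.59% and 2.81% (10 of 10 higher) and that of proximal introns 5.87% and 3.28% (9 of 10 higher). The 3′UTR share was 15.6% and 19.2%, lower in 7 of 10 RBPs (exact sign flips, adjusted p = 0.0419), a call lost without K562 replicate 1 or 2 (p = 0.0586 and 0.0698 in the same exact test). Peaks outside genes were rare, 0.117% of the removed and 0.0599% of the kept peaks, and this difference was −0.00686 points in HEK293 alone. For 3′ splice sites (1.83% and 2.76%), 5′ splice sites (2.35% and 2.66%) and small RNA genes (5.65% and 5.02%) the test was not passed, with adjusted p-values of 0.423, 0.423 and 0.439 from the exact sign flips. With the region taken at the peak's centre, 5′ splice sites passed, with 4.19% and 6.89% (exact sign flips, adjusted p = 0.00977, 9 of 10 RBPs lower). Small RNA genes passed without K562 replicate 1 and in HEK293 alone (adjusted p = 0.0391 and 0.0117 in the same exact test).

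Among removed peaks alone, the RBPs still differed in region, and 13 of 100 pairs of RBP and region passed the exact permutation test within pools after adjustment over all pairs. RBFOX2 had 59.1% and 68.2% of its removed peaks in distal introns in K562 and 77.6% and 79.7% in HEK293, above all other libraries of the pools (52.7% at most). Its mean was 71.2% against 29.0% for the other 9 (exact permutation test, adjusted p = 0.0025), and its CDS share was 6.39% against 21.0% (adjusted p = 0.0346 in the same exact test). SF3B4, which belongs to the U2 snRNP and sits at the branch point, had 11.3%, 16.2%, 15.9% and 9.25% of its removed peaks at 3′ splice sites, where no other library exceeded 1.67%. Its mean of 13.2% stood against 0.567% (exact permutation test, adjusted p = 0.0025), and its share in proximal introns was 12.1% against 5.19%. The share of SF3B4 peaks at 3′ splice sites was larger among kept peaks, with a mean of 21.9%.

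PRPF8 had 7.21% of its removed peaks at 5′ splice sites against 1.82% for the other RBPs (exact permutation test, adjusted p = 0.00429), with 9.61% and 10.9% in K562 and 5.03% and 3.34% in HEK293. Its CDS share of 37.1% was above 17.6% elsewhere and below the 75.01% of its own kept peaks. A peak with any base in the CDS counts as CDS, so peaks that cross a 5′ splice site of a coding exon are in this share. With the region taken at the peak's centre, the mean share of kept peaks over the 10 RBPs was 41.8% in the CDS and 6.89% at 5′ splice sites, in place of 48.7% and 2.66%. DDX3 and EIF3G, a helicase and an initiation factor subunit that act while ribosomes scan the 5′UTR, had 30.0% and 31.5% of their removed peaks in 5′UTRs against 9.17% and 8.999% for the RBPs other than each (exact permutation test, adjusted p = 0.012 and 0.00556). Among the kept peaks of these RBPs the 5′UTR shares were 18.4% and 23.7%. FAM120A and IGF2BP2, which bind mature mRNA, had 37.0% and 33.8% in 3′UTRs against 13.2% and 13.6% (adjusted exact permutation p = 0.004 and 0.0258). PUM2 had 16.1% in small RNA genes and 7.99% in noncoding exons, against 4.49% and 4.21%. The call was lost without K562 replicate 1 or 2 for DDX3 (adjusted exact permutation p = 0.0583 and 0.0636), without any 1 pool for IGF2BP2 (0.0583 to 0.114) and for the CDS of FAM120A (0.0833 to 0.133), without K562 replicate 2 or either HEK293 pool for the CDS of RBFOX2 (0.075 to 0.207), and with the region taken at the peak's centre for the CDS of PRPF8 (0.223).

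**Figure D2:**
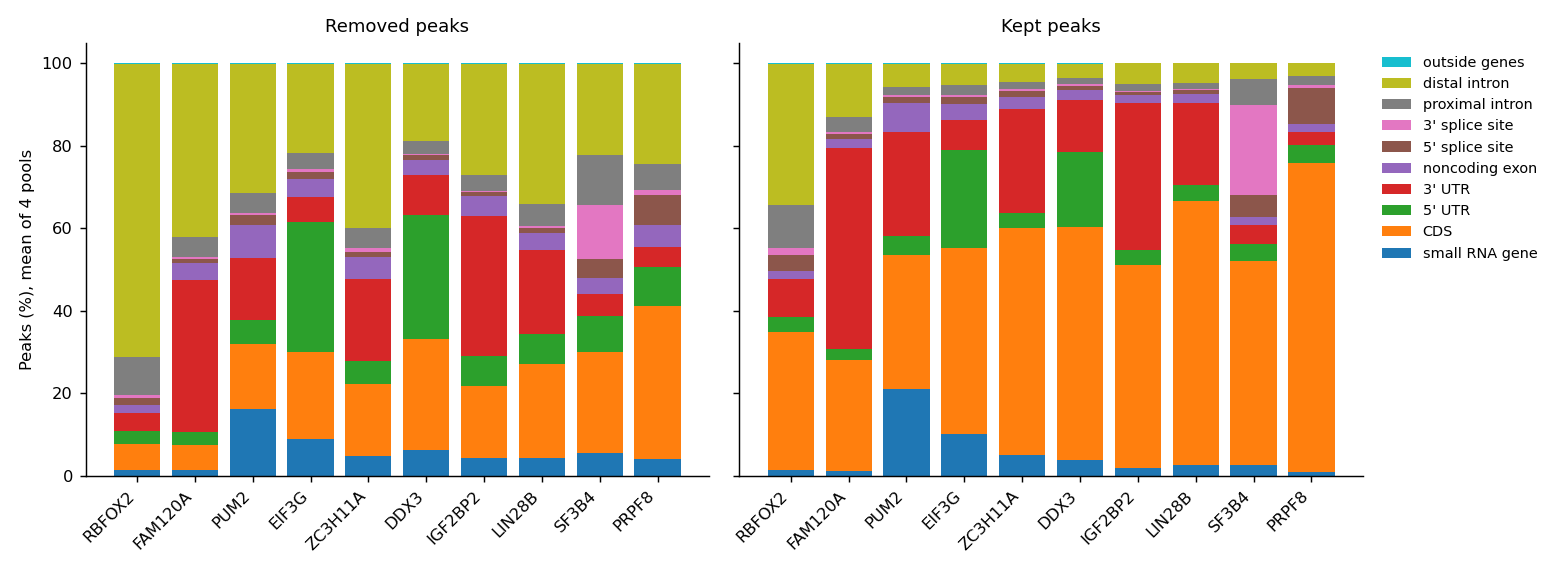
Share of removed (left) and kept (right) peaks in each genic region, as the mean of 4 pools in percent, with 1 bar for each RBP and colours for regions. Distal introns fill a larger part and the CDS a smaller part of every bar on the left, as in RBFOX2 with 71.2% against 34.4% in distal introns.

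Removed peaks in small RNA genes numbered 6053, beside 20137 kept ones, so that 23.1% of all peaks in such genes were removed. Families split almost completely into removed and kept. All 2732 peaks in 5S rRNA genes and pseudogenes were removed, as were all 501 in U6, all 219 in U2, all 159 in U1, all 153 in Y RNA, all 96 in U8 and all 90 in 7SL genes. The U5 genes lost 686 of 695 peaks, 7SK lost 410 of 414, and the snoRNAs U14 and U17 lost 449 of 450 and 196 of 196. The genes whose symbols begin with SNORD3, among them U3, lost 168 of 1095 peaks, with removed peaks in 3 of 16 genes. This match can also take in snoRNAs other than U3, so no share is given for U3 alone. By contrast, only 51 of 16064 peaks in other snoRNAs were removed, and none of 1534 in scaRNAs, 400 in RPPH1, 211 in RMRP, 186 in U12, 112 in U11, 105 in U4atac or 97 in vault RNA. Peaks of the minor spliceosome RNAs U11, U12, U4atac and U6atac (2 of 62 removed) all or almost all stayed in the filtered lists. Those in U1, U2, U4 (25 of 25), U5 and U6 genes were all or almost all removed. In the 3 pools for which the authors' own annotation names tRNA, 962 of 963 such peaks were removed.

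**Figure D3:**
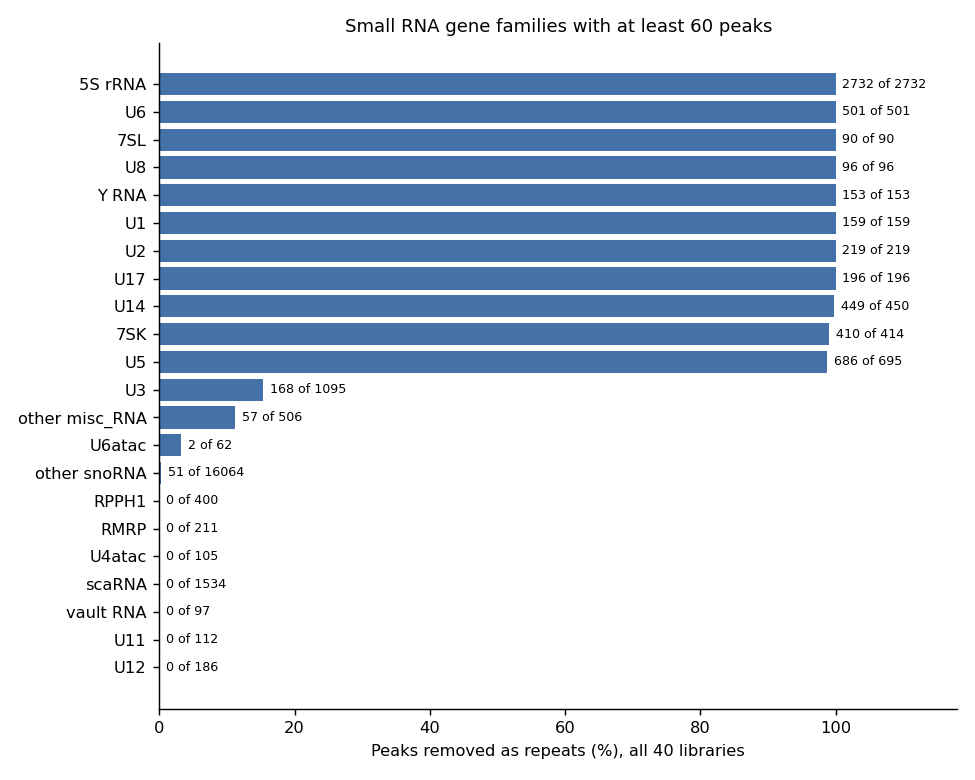
Percent of peaks that were removed, for each small RNA family with at least 60 peaks over the 40 libraries, with the number removed of all peaks beside each bar. Families sit near 100% (such as 5S rRNA with 2732 of 2732) or near 0% (such as scaRNA with 0 of 1534). Between lie the bar labelled U3 (168 of 1095) and the remaining misc_RNA genes (57 of 506). The bar labelled U3 takes all symbols that begin with SNORD3, which can include other snoRNAs.

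In 99 small RNA genes at least 1 RBP had a removed peak in all 4 pools. They comprised 47 of 5S rRNA, 12 of U6, 8 of U5, 7 of 7SK, 6 of U2, 4 of U14 and smaller numbers of the rest. For 10 of them this held for all 10 RBPs, namely RNU5E-1, RNU5E-4P, RNU5E-6P, RN7SK, the U14 genes SNORD14B, SNORD14C and SNORD14E, the U3 gene SNORD3A, and the 5S pseudogenes RNA5SP150 and RNA5SP355. Reads from near-identical copies cannot be placed with certainty, so a peak in 1 copy may come from another. The gene with the highest fold over the external background at a removed site was RNU5E-1 or RN7SK for each of the 10 RBPs. At its site in RNU5E-1, the log2 fold of PRPF8 was 15.1 and 15.3 in K562 and 18.8 and 18.4 in HEK293, a mean of 16.9 ± 1.94 (SD, n = 4 pools). At the RN7SK site printed above, PUM2 had 15.4, 15.2, 15.5 and 16.02. The external background differs between the lines, so these values are compared only within a line.

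PUM2 had the largest part of its removed peaks in small RNA genes, with 22.9% and 18.1% in K562 and 12.96% and 10.3% in HEK293. The values overlapped with those of EIF3G in K562, at 13.3% and 11.01%. The mean of 16.1% stood against 4.49% for the other 9 (exact permutation test over 10 RBPs, adjusted p = 0.001). PUM2 libraries had the fewest peaks in each pool and the kept peaks of PUM2 were also rich in small RNA genes (21.0%), and the part of library size in this result was not tested. 5S rRNA alone held 5.38% of the removed PUM2 peaks and 0.66% of those of RBFOX2. Weighted by reads in K562 alone, PRPF8 stood highest, with a difference of 17.5 points from the other RBPs, where it was −1.83 by number of peaks over the 4 pools, and PUM2 stood 11.7 points above (adjusted exact permutation p = 0.1 and 0.467). With the 2 pools of K562 no RBP can pass this test after adjustment. As descriptions, the largest mean share of removed peaks in U6 was that of PRPF8 at 0.733% (201 of the 501 U6 peaks), followed by PUM2 at 0.434%. In Y RNA it was that of IGF2BP2 at 0.421% (68 of 153 peaks), and in U2 that of SF3B4 at 0.489% (60 of 219), followed by EIF3G at 0.267%.

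Next, peaks related to 7SL were found by a BLASTn match of the peak and 50 nt on each side to RN7SL1 or RN7SL2, which marks the parts of Alu elements closest to 7SL and their strand. This gave 15052 removed peaks in sense and 8717 in antisense, with 9 and 10 among kept peaks. LIN28B, a protein known to block let-7 maturation, had 8.94% and 9.34% of its removed peaks in the sense class in K562 and 5.90% and 8.41% in HEK293. FAM120A and ZC3H11A overlapped this range, with up to 9.29% for ZC3H11A in K562 replicate 1. The mean of LIN28B was 8.15% ± 1.55 (SD, n = 4 pools) against 3.92% for the other RBPs (exact permutation test, adjusted p = 0.002 over 10 RBPs and both orientations). Antisense matches were most frequent for FAM120A, at 5.76%, 6.46%, 4.53% and 4.91%, above every other library (2.97% at most). The mean of 5.41% ± 0.866 (SD, n = 4 pools) stood against 1.62% (exact permutation test, adjusted p = 0.002). FAM120A also had 7.09% in sense, and ZC3H11A 6.42%, but neither passed the test (adjusted exact permutation p = 0.0593 and 0.124). Of the FAM120A antisense peaks, 57.4% were in 3′UTRs and 34.4% in distal introns. Of the LIN28B sense peaks, 54.9% were in distal introns and 29.7% in 3′UTRs.

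Tandem repeats of units up to 6 nt covered at least 80% of 5548 removed and 81 kept peaks. ZC3H11A, a zinc finger protein linked to mRNA export, had 17.8% and 8.76% of its removed peaks in them in K562 and 5.45% and 5.62% in HEK293, a mean of 9.40% against 3.23% (exact permutation test, adjusted p = 0.006). PUM2 had 14.5%, 6.94%, 5.86% and 7.75%, a mean of 8.77% against 3.30% (adjusted exact permutation p = 0.0095), a call lost without HEK293 replicate 2 (p = 0.07 in the same exact test). These rest on 698 peaks of ZC3H11A and 109 of PUM2. The tracts were strongly one-sided in strand. Peaks in A tracts numbered 1569 and in T tracts 21, those of AC and GT repeats 2294 and 38, and those of CGG and CCG 348 and 74. A tracts were 534 of the 698 ZC3H11A peaks (245 and 94 in K562, 62 and 133 in HEK293), and 449 of them lay in distal introns. RBFOX2 instead had 777 AC repeats and 162 A tracts among 1317.

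**Figure D4:**
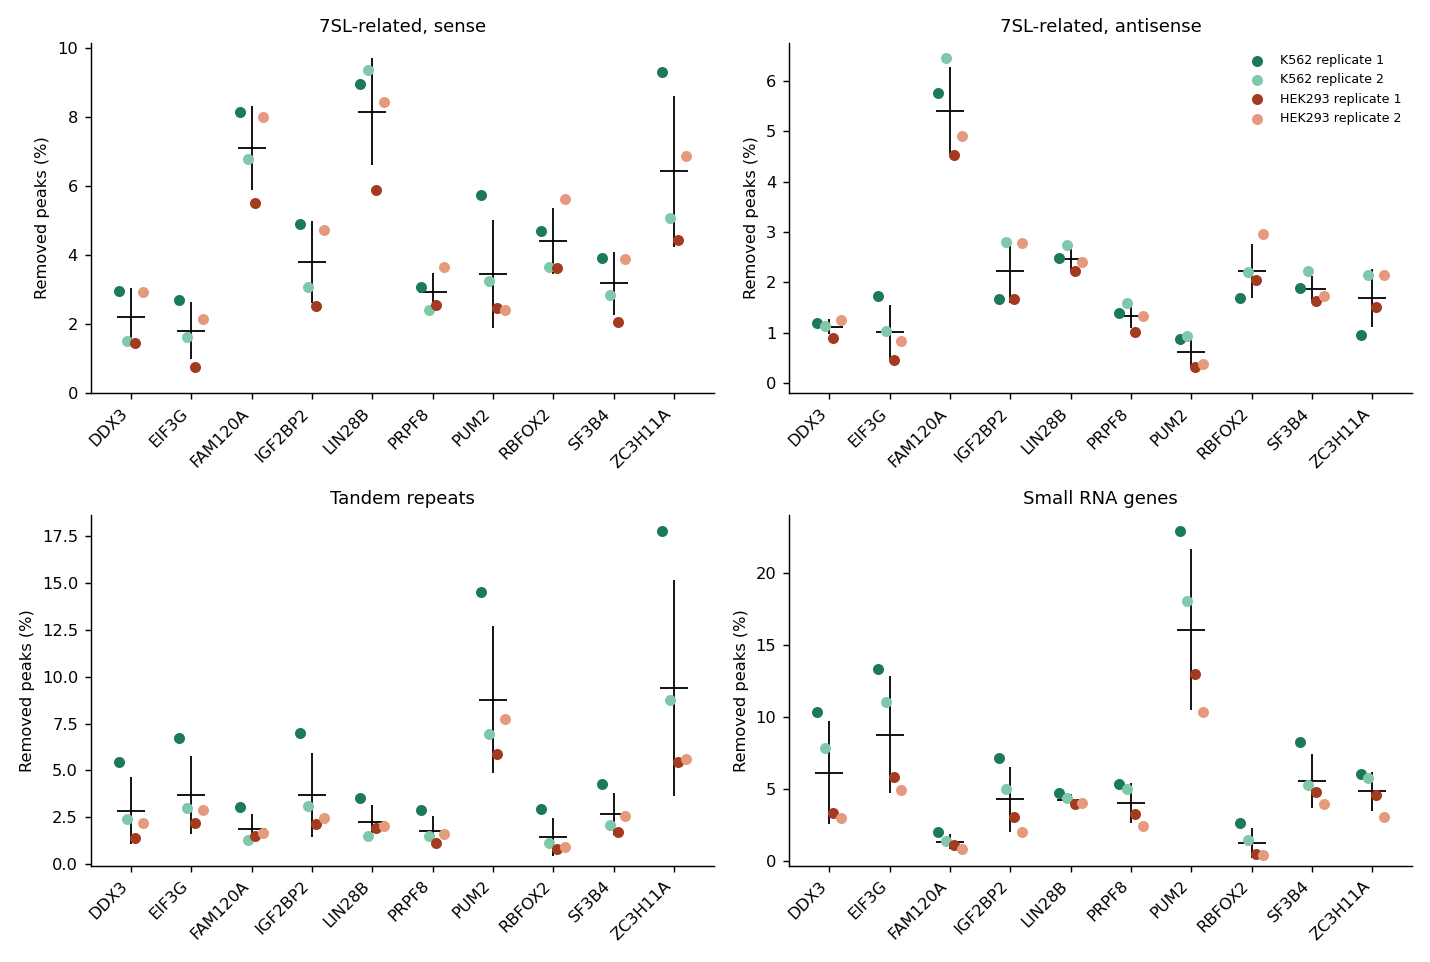
Percent of removed peaks in 4 kinds of repeat for each RBP, with points for pools and the mean ± SD of 4 pools in black. LIN28B (mean 8.15%) leads the 7SL-related sense panel, FAM120A (5.41%) the antisense panel, ZC3H11A (9.40%) the tandem repeats and PUM2 (16.1%) the small RNA genes.

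These classes left most removed peaks without a label. Peaks in sequence of at least 100 copies, by the median number of times that a peak's 15-mers occur in the genome, were 51013 among removed and 4608 among kept peaks. Neither class nor copy number marked 237061 removed peaks, a mean of 74.2% over the libraries. Median lengths ran from 37 to 53 nt among removed and 32 to 48 nt among kept peaks of a library. No repeat annotation of the genome was used here, so the family of these peaks is not given.

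The genes with most removed RBFOX2 peaks were FHIT, RAD51B and GSE1, as raw counts from libraries with 7909 and 13445 removed peaks in K562 and 42556 and 64444 in HEK293. FHIT, a gene at a fragile site, had 7 and 6 removed RBFOX2 peaks in K562 and 151 and 257 in HEK293, and RAD51B, a homologous recombination gene, had 2, 10, 125 and 198. GSE1 had 54, 51, 93 and 127. In all 3 genes at least 94.5% of the peaks lay in distal introns. The removed share of all RBFOX2 peaks in the gene was 45.1% for FHIT, 50.2% for RAD51B and 28.3% for GSE1, where RBFOX2 lost 42.5% of its distal intron peaks. The first genes of FAM120A were GSE1 (56, 47, 34 and 50), the noncoding RNA gene JPX (10, 13, 67 and 73) and HELLS (14, 27, 40 and 39). Of all FAM120A peaks in these genes 25.8%, 89.1% and 58.0% were removed. In most other RBPs the first genes were NEAT1, the RNA scaffold of paraspeckles, and hosts of small RNAs. NEAT1 had a mean of 10.75 removed peaks for DDX3, 13 for IGF2BP2, 9.5 for LIN28B, 9.75 for SF3B4 and 7 for ZC3H11A. These were from 27.7% (ZC3H11A) to 31.7% (SF3B4) of the peaks of the RBP in NEAT1, where the RBP means for noncoding exons ran from 19.6% to 31.3%. HSPA8, a chaperone gene with U14 snoRNAs in its introns, had 9 for DDX3, 7 for EIF3G, 9.75 for SF3B4 and 4.5 for PUM2, of which 83.3% to 100% lay in the small RNA genes. RCC1, which hosts the U17 snoRNAs, had 6.25 for DDX3 and 6.75 for LIN28B. PRPF8 had most in ANKRD17 (10), with DNAH14 and NEAT1 next (9.25 each).

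The RBFOX2 motif was more frequent in the removed peaks of RBFOX2 than in those of the other RBPs. GCATG, searched on the peak's strand alone within the peak and 50 nt on each side, stood in 34.0% and 43.1% of the removed RBFOX2 peaks in K562 and 42.8% and 37.7% in HEK293. The other 9 RBPs had 8.05% to 14.5% in every library, with a mean of 11.7% against 39.4% for RBFOX2 (exact permutation test, adjusted p = 0.0001, the smallest that this test can give). In distal introns alone, the removed and kept RBFOX2 peaks had 44.9% and 43.7%. Over all regions the kept RBFOX2 peaks had 29.4%, and the reverse complement of the motif, CATGC, stood in 22.3% of the removed RBFOX2 peaks against 11.1% for the other 9 RBPs, a difference that was not tested. TGTANATA, the Pumilio motif, was in 4.30% of the removed PUM2 peaks against 1.25% for the other 9 (adjusted p = 0.0001 in the same exact test) and in 8.18% of the kept ones. In distal introns this difference was −0.53 points (exact permutation p = 0.1128). GTAAG or GTGAG, the common start of introns, was in 38.1% of the removed PRPF8 peaks against 26.6%, and in 46.5% of the kept ones.

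Enrichment over the external background, which the methods give as RNA-seq, was taken as a P below 0.001 with a fold above 8. Over all peaks, 48.7% passed in the K562 pools and 34.7% in the HEK293 pools. Of the removed peaks a mean of 63.1% passed and of the kept peaks 49.6%, higher among removed peaks in 9 of 10 RBPs (exact sign flips, p = 0.00391). The difference was 25.3 points in HEK293 alone and 1.81 in K562 alone (exact sign flips, p = 0.00391 and 0.211). In K562 the background had at most 1 read at 89.0% to 98.5% of the peaks of a library, so the fold there mostly follows the reads of the peak. Within introns alone the difference was 4.11 points over all pools and 2.36 in HEK293. Within the CDS alone it was 12.1 points, with 49.3% of removed and 37.3% of kept peaks enriched (exact sign flips, p = 0.00195, 10 of 10 RBPs higher). Over all regions RBFOX2 was the exception in direction, with 22.8% of its removed and 23.2% of its kept peaks enriched.

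A removed peak was found again in the other pool of the same line, by an overlap on the same strand, in 42.0% of cases on average and a kept peak in 39.0%. The difference of 2.96 points did not pass the exact sign flips (p = 0.117). DDX3 had 51.0% and 39.8% and EIF3G 47.4% and 37.5%, while PRPF8 had 48.5% and 52.6%. Restricting to peaks of 30 to 50 nt turned the sign (−2.36 points, exact sign flips p = 0.172), and without HEK293 replicate 2 the difference was 4.38 points (exact sign flips, p = 0.0273). It also passed at an overlap of at least 50% of the peak (3.91 points, p = 0.0332 in the same exact test), with at least 10 reads in K562 (3.89 points, p = 0.00195, 10 of 10 RBPs) and within introns (5.93 points, p = 0.0293). Of the removed peaks in K562 replicate 1, 16.03% (ZC3H11A) to 37.3% (DDX3) were found as removed peaks in all of the 4 pools, 8300 sites in all.

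K562 replicate 3 gave a further look, since the authors deposited its values over the complement control (CC), in which the reads of the 9 remaining barcodes are added up, with repeats included. Of all its peaks 16% were enriched over the CC. Peaks of replicate 3 at places removed in replicates 1 or 2 were enriched in 26.3% of cases as a mean over RBPs and those at kept places in 23.4%, higher in 7 of 10 RBPs, a difference that did not pass the test (exact sign flips, p = 0.244). Peaks that touched both kinds of place, or had no CC value, were left out. The gap was widest for PUM2, where 432 of 534 peaks at kept and 110 of 112 at removed places had a CC value. PRPF8 had 35592 of 36096 and 2726 of 2766. Within introns alone the difference in the share enriched was −3.31 points (exact sign flips, p = 0.383). The RBPs ran in both directions. ZC3H11A had 31.1% at removed and 12.1% at kept places and RBFOX2 25.3% and 16.8%, while SF3B4 had 36.6% and 45.2%. With 1 pool these are values without a test for single RBPs.

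The share differed between kinds of repeat, given here as counts with exact Clopper-Pearson 95% intervals, which cover counting error only. The intervals, and the limits given for counts of 0, take the peaks as independent of each other. The classes were looked at after the data were seen. At A tracts removed in ZC3H11A, 39 of 42 peaks (92.9%, interval 80.5% to 98.5%) were enriched, with a median log2 fold over the CC of 5.10, where 20% of all ZC3H11A peaks were. At A tracts of the 7 other RBPs that had such a place none of 40 peaks was, which allows a share of up to 7.5% (3 counts of the total). The CC of those RBPs includes the ZC3H11A reads, which lowers their folds where ZC3H11A is high. Their count is therefore not independent of the enrichment of ZC3H11A. At 7SL-related sense places, 56 of 77 LIN28B peaks (72.7%, interval 61.4% to 82.3%) and 16 of 19 ZC3H11A peaks (84.2%) were enriched, with 30.4% of all LIN28B peaks. FAM120A was enriched at 174 of 427 sense (40.7%) and 154 of 413 antisense (37.3%) places, with 16.4% of all its peaks. Shares of similar size on fewer places were those of PRPF8 at 14 of 32 sense places (43.8%, interval 26.4% to 62.3%) and of SF3B4 at 11 of 24 sense (45.8%, interval 25.6% to 67.2%) and 5 of 9 antisense places, where 39.8% of all SF3B4 peaks were enriched. IGF2BP2 was enriched at 1 of 48 sense places (2.08%, interval 0.0527% to 11.1%) and 0 of 36 antisense places, beside 6.02% of all its peaks. By region alone, distal intron places of LIN28B were enriched in 59.3% (removed) and 73.0% (kept), and those of ZC3H11A in 64.7% and 59.3%. For FAM120A the shares were 36.1% and 32.0% at 3′UTR places and 11.9% and 13.1% at distal intron places. The part of the region in the shares by class was not tested.

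For RBFOX2, 596 of 1447 removed places with GCATG (41.2%, interval 38.6% to 43.8%) were enriched over the CC and 151 of 1502 without it (10.1%), with 11.6% of all its peaks. At kept places with GCATG the share was 35.3%. The HPCAL1 site printed above had log2 folds over the external background of 10.3 and 9.69 in K562 and 7.78 and 8.61 in HEK293 and one of 5.88 over the CC. PRPF8 was the RBP with enrichment at U5, a partner of PRPF8 in the U5 snRNP, with 10 of 26 places (38.5%, interval 20.2% to 59.4%) where the other 9 RBPs had 0 of 103, which allows up to 2.91%. At U6 PRPF8 had 6 of 30 and the 7 others with such a place 0 of 27 (up to 11.1%), beside 15.4% of all PRPF8 peaks. The CC of the other RBPs includes the PRPF8 reads, which lowers their folds where PRPF8 is high. Their counts at U5 and U6 are therefore not independent of the enrichment of PRPF8. Places at U5, U6 or 5S rRNA can also lie in the same gene or in near-identical copies, so the intervals and limits can be too narrow. In all 10 U5 genes with a PRPF8 peak in replicate 3 the log2 fold over the CC was above 0, from 1.08 to 4.39, and it was 3.69 in RNU5E-4P, 3.71 in RNU5D-1 and 3.85 in RNU5A-8P. At 5S rRNA, by contrast, PRPF8 had 0 of 70 (up to 4.29%) and the other RBPs 2 of 312. RN7SK had log2 folds over the CC of 0.39 for DDX3 and −0.66 for FAM120A.

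**Figure D5:**
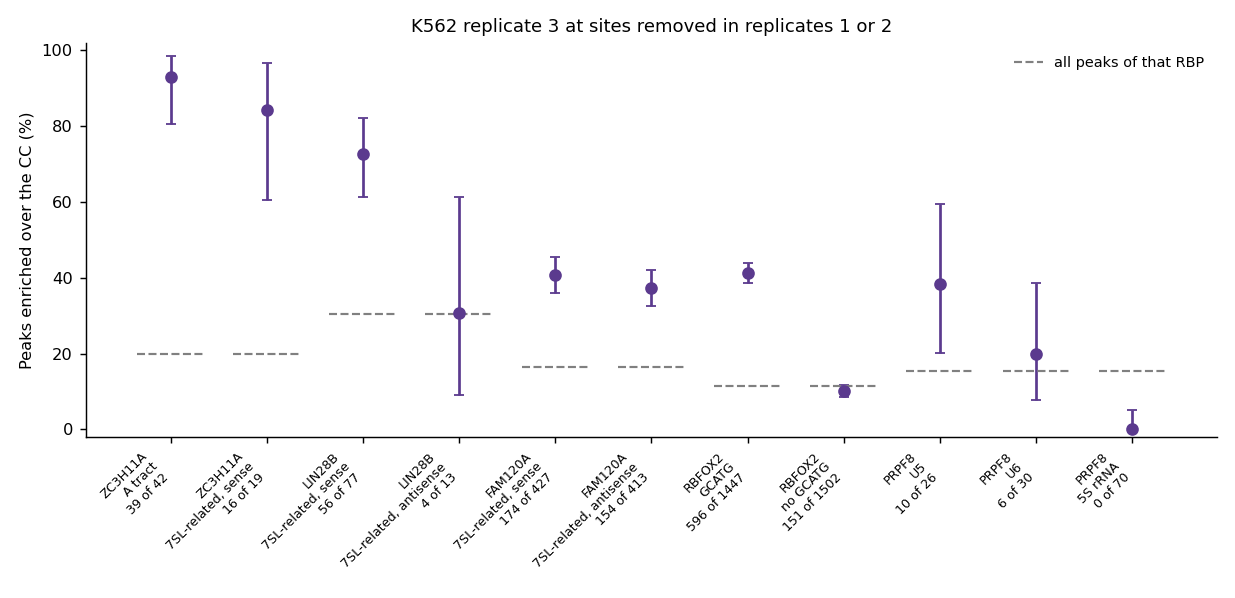
Percent of K562 replicate 3 peaks enriched over the CC at places removed in replicates 1 or 2, for selected kinds of repeat, with exact 95% intervals and the number enriched of all under each point. Dashed lines mark the share over all peaks of that RBP, which ZC3H11A A tracts (39 of 42), LIN28B sense places (56 of 77) and RBFOX2 places with GCATG (596 of 1447) exceed, while 5S rRNA lies at 0 of 70 for PRPF8.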

How the data were processed

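Per the labels and methods, the authors trimmed adapters (cutadapt 2.8), set aside reads of repetitive elements, aligned unique reads to GRCh38 (STAR 2.7.6), took out PCR duplicates and ran CLIPper as the peak caller. The authors deposited, for each CLIPper peak, its p-value and a whole-number display score. For merged peaks, the authors deposited the −log10 of P (at most 400) and the log2 of the fold, both against an external background. They also deposited lists without peaks that overlap RepeatMasker entries, and for K562 replicate 3 the same pair of values against the CC. Removed peaks were found by comparing these lists. Reads were recovered from the fold for K562 alone. In replicates 1 and 3 they were equal to the reads in the peak name for 95.5% to 99.4% of peaks. The reads of replicate 2 were not compared with peak names. In a check on 400 peaks of each library, 88% were matched for FAM120A in replicate 2 and at least 96.25% in every other K562 library.

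Regions came from GENCODE release 44 (the authors used 35) in the order small RNA gene, CDS, 3′UTR, 5′UTR, noncoding exon, splice site (within 100 nt), proximal intron (within 500 nt), distal intron. A peak was given the first of these that any of its bases touched. The transcripts used were those tagged basic, and for protein-coding genes only those of protein-coding type. The rest of a gene's span counted as distal intron, so exons of other transcripts can be in that region. The region matched that in the authors' annotation at 88.7% to 94.6% of peaks. BLASTn 2.17.0+ used word size 11 and E below 1e-05.

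RBPs were compared by exact permutation of RBP labels within pools (10000 choices), removed and kept peaks by exact sign flips over RBPs, with Benjamini-Hochberg adjustment and a threshold of 0.05. Both were tested on simulated data without a difference, in 200 runs each. The permutation called a preset RBP in 0% of runs and the other RBPs at a rate of 0.722%. The share of runs with a call for any RBP is not given here. The sign flips gave calls in 7% of runs. Named genes were small RNA genes with a removed peak in all 4 pools in at least 1 RBP, the 3 genes with most removed peaks per RBP, and per RBP the site with the highest mean fold, except 1 gene that is not reported here. The members, lists and classes were chosen with earlier results of these data known. A genome with marked repeats was not used here, so the planned check of masked bases was replaced by 15-mer copy numbers. Alternatives included stricter limits, K562 or HEK293 alone, single regions, peaks of 30 to 50 nt and leaving out each pool.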

Additional observations from a re-analysis of the deposited data

Results flagged for a closer look

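For FAM120A the share of peaks enriched over the external background was lower among removed than kept peaks in both K562 pools and higher in both HEK293 pools. The mean difference was −6.19 points in K562 and 25.5 points in HEK293. LIN28B went the same way, with −2.16 and 32.4 points. The difference between the lines was not tested. In K562 the background had at most 1 read at most peaks, while its reads in HEK293 could not be recovered. The part of the background in the result was not tested.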

How the results depend on the processing

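The main calls by RBP were 2 for the removed share (RBFOX2 and PRPF8). The number was 1 with touching peaks counted as 1, with peaks of 30 to 50 nt (RBFOX2 in both) and without each pool (leave-one-out range 1 to 1). It was 3 among enriched peaks, where SF3B4 was added, 1 in distal introns, which was ZC3H11A, 2 in the CDS, which were PUM2 and EIF3G, and 0 in 3′UTRs. It was also 0 on K562 alone with at least 10 reads or weighted by reads, where 2 pools cannot pass after adjustment. RBFOX2 turned to −6.70 points in distal introns and −0.80 in the CDS, and PRPF8 to 0.19 in 3′UTRs. HEK293 minus K562 was −0.91 points and turned to 5.22 among enriched peaks, with leave-one-out values from −2.93 to 1.11. Peaks outside genes turned to −0.00686 in HEK293 alone. The difference at 5′ splice sites, which did not pass, passed as −2.70 points with the region taken at the peak's centre. Enrichment over the external background fell to a difference of 1.81 points in K562 alone. The difference in finding a peak in the other replicate was 2.96, which did not pass, and passed as 3.91 at an overlap of 50% of the peak, 3.89 with at least 10 reads in K562 and 5.93 in introns. It was −2.36 at 30 to 50 nt, with leave-one-out values from 0.985 to 4.38. That over the CC turned to −3.31 in introns. Calls for tandem repeats numbered 2, and 1 or 2 on leaving out a pool. Calls for small RNA genes numbered 1, with 2 among enriched peaks. The number was 0 weighted by reads in K562, where again 2 pools cannot pass after adjustment. TGTANATA turned to −0.53 in distal introns. The causes were not tested. Over the alternatives, 82 summary values stayed as they were, 13 moved, 5 reversed, 4 gained and 1 lost the call. Of the values of single RBPs or regions, 199 kept their direction and side of the threshold, 37 lost the call and 5 reversed.

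Without the replicate block, with RBP labels exchanged over all pools, the calls numbered 2 for the removed share, 2 for 7SL-related peaks, 2 for tandem repeats, 1 for small RNA genes and 13 for regions, and the GCATG difference was 27.8 points, so no call was changed by the pairing within pools. The alternatives on bases marked as repeat were not run, as the genome used here marks none. The restrictions to single regions and to peaks of 30 to 50 nt were chosen after seeing the data. Depth limits PUM2 most, with 938 merged peaks in its smallest library.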
